A study of Homo sapiens with 8 samples.

Results

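The sites described here are stretches of the genome at which a p53 peak was called in every library of a chromatin immunoprecipitation sequencing (ChIP-seq) study of 293T cells. Peaks of the 4 libraries were pooled, peaks that shared at least 1 bp were merged into sites, and a site was kept when it held at least 1 peak of each library. This gave 3840 sites of 63890 merged sites, or 6.01% of them. The sites were thus chosen by the peak calls themselves, and their presence in every library and in both conditions is a property of the choice and not a result. They are set beside the 46298 sites that held a peak of 1 library. A further 4772 sites held peaks of 3 libraries and 8980 held peaks of 2. The number depends on the lists: with every list shortened to its 11304 smallest-p peaks there were 2294 such sites, and without PBS replicate 1 there were 6282 sites of all 3 remaining libraries. Without Dox replicate 1 such sites made up 12.45% of the merged sites.

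The 4 libraries came from 293T, a line from human embryonic kidney in which the large T antigen of a simian virus is made and can bind p53. Doxorubicin, a topoisomerase poison that breaks DNA, was given at 0.5 µg/ml for 24 h (Dox, 2 libraries), and phosphate-buffered saline as the vehicle at 20 µl for 24 h (PBS, 2 libraries). In each condition replicate 1 was taken at passage 3 and replicate 2 at passage 5. Passage and replicate number therefore cannot be told apart. All 4 libraries were precipitated with the same antibody to p53, the study is of 1 cell line, and the 4 input samples named in the labels were not analysed here.

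The protein p53 is a transcription factor that binds DNA as a tetramer. It recognises a pair of similar short decamers and switches on genes for cell cycle arrest, DNA repair and cell death. It is kept low in unstressed cells by the ubiquitin ligase MDM2 and accumulates after DNA breaks. In ChIP-seq, a factor that sits at 1 point on the DNA gives a narrow peak whose highest position, the summit, falls at nearly the same base in every library. Broad or scattered enrichment gives wide peaks whose summits move from library to library. Positions are on build hg19. No annotation or sequence of that build was used, so sites are named by chromosome and position, were not assigned to genes, and the p53 motif was not searched.

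Dox replicates 1 and 2 had lists of 46658 and 16642 peaks, and PBS replicates 1 and 2 lists of 11304 and 22978. The shortest list therefore limits how many sites can be shared, and read depth is not given in the lists. Sites present in every library took up 9.46% (95% Wilson interval 9.2 to 9.73) of the Dox replicate 1 peaks and 27.5% (26.8 to 28.1) of the Dox replicate 2 peaks. The shares were 39.6% (38.7 to 40.5) of the PBS replicate 1 peaks and 20.1% (19.6 to 20.7) of the PBS replicate 2 peaks. Intervals of this kind cover counting error only and treat peaks or sites as independent.

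Peaks at sites of all 4 libraries stood high within their own lists. The fold enrichment deposited with each peak is the authors' own value over the peak caller's local background, and it is used here only within a list. The median peak of these sites lay at fold percentiles of 89.75 and 71.69 in Dox replicates 1 and 2, and of 66.9 and 77.46 in PBS replicates 1 and 2. Peaks of sites of 1 library lay at median percentiles of 37.27 and 35.34 in Dox and of 30.78 and 36.85 in PBS. In Dox replicate 1, 1235 of the 4416 peaks at shared sites had a q-value of at most 0.05, with 3.65% over the whole list. In Dox replicate 2 the share was 15.3%, with 4.84% over the whole list. In PBS replicate 1 it was 6.19%, with 2.56%, and in PBS replicate 2 it was 22.7%, with 5.84%. These values come from the same calls that chose the sites, and nothing is drawn from their order.

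Most of the 3840 sites were nevertheless made of weak peaks. At 2181 sites (56.8%, interval 55.2 to 58.4) the strongest peak reached a q of 0.05 in none of the libraries, and at 206 sites (5.36%, 4.7 to 6.12) it did so in all 4. In the authors' matched replicate pairs, a pair with an irreproducible discovery rate (IDR, the expected share of pairs that do not replicate) of at most 0.05 lay in 1718 of the sites for Dox (44.7%) and in 695 for PBS (18.1%), and 528 sites (13.8%) held one of both conditions. Over all deposited pairs, 2416 of 8784 Dox pairs and 937 of 6244 PBS pairs had such a rate. A site was counted if any such pair lay in it, and a wide site can hold several pairs. The shares of sites and of pairs are therefore not like for like.

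The sites of all 4 libraries were wide. Their median width was 822 bp, with quartiles of 575.8 and 1184 bp, against 248 bp with quartiles of 206 and 316 bp for sites of 1 library. A width of 1 kb or more was found at 1402 sites (36.5%, interval 35.0 to 38.0), against 57 sites of 1 library (0.123%, 0.095 to 0.159). Joining peaks of several libraries widens a site by construction, and sites of 3 and of 2 libraries lay between, with medians of 581 and 416 bp. The width of single peaks does not depend on merging. In Dox replicate 1 the median peak was 533 bp wide at sites of all 4 libraries and 253 bp at sites of 1 library. For Dox replicate 2 the medians were 390 and 244 bp. For the PBS libraries they were 353 and 228 bp in the first and 424.5 and 236 bp in the second. Peaks at shared sites were thus the wider ones within each list. With only peaks of q at most 0.05, the merged widths were 1004 bp at sites of all 4 libraries and 540 bp at sites of 1.

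**Figure D1:**
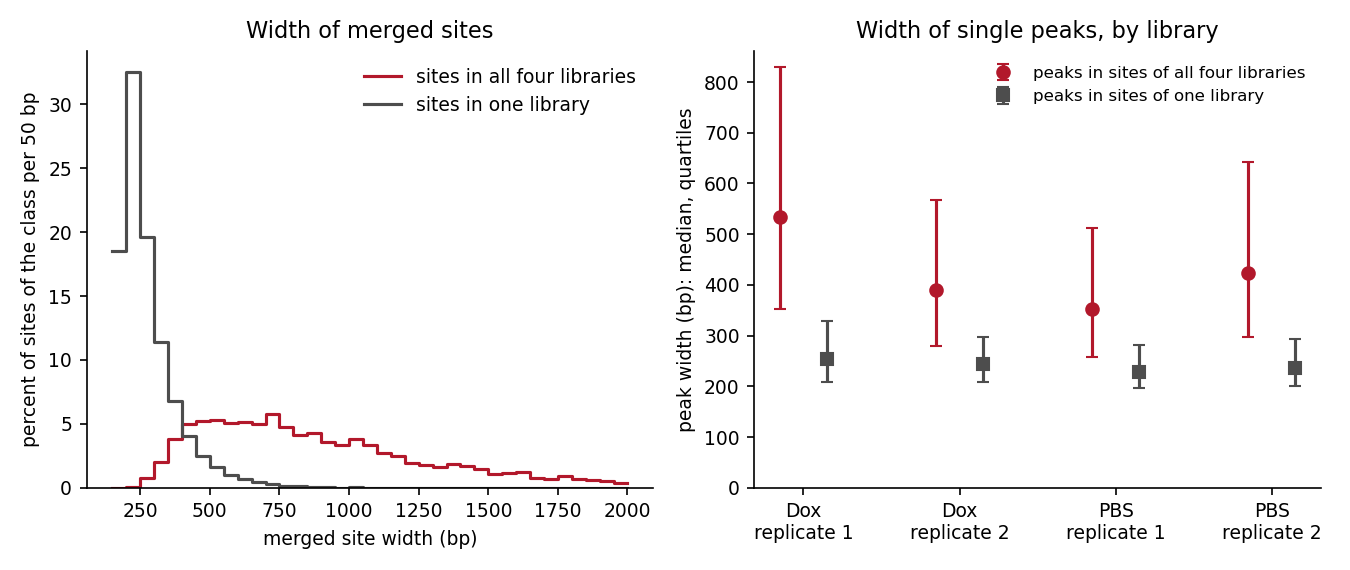
Left, the distribution of merged site widths (x axis, bp, shown to 2000 bp) as percent of each class per 50 bp, for sites in all 4 libraries and sites in 1 library. Right, the median peak width (point) with quartiles (bars) in each of the 4 lists, where medians of 353 to 533 bp at sites of all 4 libraries stand above medians of 228 to 253 bp at sites of 1 library.

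The fold of a peak moved with its width, so widths were also set side by side within 5 ranges of the fold percentile of each list. The median width was larger at sites of all 4 libraries in 20 of the 20 ranges. Among Dox replicate 1 peaks of percentiles 25 to 50, the medians were 363 bp at sites of all 4 libraries (380 peaks) and 248 bp at sites of 1 library (9276 peaks). Among PBS replicate 1 peaks of percentile 90 and above, they were 489 bp (957 peaks) and 272 bp (24 peaks). A wider peak also has more bases with which to meet another list, and the part of this in the difference was not tested.

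The bases on which every library placed a peak were fewer than the merged width. The stretch covered by a peak of all 4 libraries had a median length of 217 bp, with quartiles of 129 and 326 bp, and made up a median of 29.18% of the site. This common stretch was shorter than the 248 bp median width of sites of 1 library. At 442 sites (11.5%, interval 10.5 to 12.6) no base lay in a peak of every library, and the site was held together by a chain of overlaps. These chained sites were 1046 bp wide at the median. At 2576 sites (67.1%, 65.6 to 68.6) each library gave exactly 1 peak, and the merged width there was 663.5 bp at the median. The other 1264 sites held more than 4 peaks and were 1346 bp wide at the median.

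The widest sites were blocks of many peaks. On chromosome 1, the site from 28832068 to 28844960 spanned 12893 bp and held 33 peaks, of which 2 and 7 were in Dox replicates 1 and 2 and 13 and 11 in PBS replicates 1 and 2. Dox replicate 1 thus drew in 2 blocks what the other libraries split into more peaks. A stretch of 5728 bp of it lay in peaks of every library, and its fold enrichment was 8.78 and 8.67 in the Dox libraries and 9.04 and 8.52 in the PBS libraries. A second wide site lay close by, at 28902583 to 28908727, with 14 peaks and 4 summits within 26 bp. Of the other 3 of the 5 widest sites, those on chromosome X (30818279 to 30824547, 6269 bp) and chromosome 19 (5689479 to 5695666, 6188 bp) had folds of only 2.55 to 5.13. The last, on chromosome 5 (137800948 to 137807028, 6081 bp), had folds of 6.11 and 8.17 in Dox and 3.58 and 10.4 in PBS.

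A Dox against PBS difference in peak width at the shared sites did not exceed the spread between libraries. The library medians averaged 461.5 ± 101.1 bp in Dox and 388.8 ± 50.56 bp in PBS (SD, n = 2 each), a difference of 72.75 bp, less than the SD of the Dox libraries (two-sided exact permutation p = 0.667, where the design allows no p under 0.33). Within number 1 the Dox library was wider by 180 bp, and within number 2 the difference was -34.5 bp. Dox replicate 1, the longest list, had the widest peaks, and without it, among sites of the other 3 libraries, the difference was -2.5 bp. At sites of 1 library the same difference was 16.5 bp (exact permutation p = 0.33, the smallest the design allows).

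Summits agreed loosely over the whole set and closely at its strongest sites. For each site the summit of each library's smallest-p peak was taken, and the spread is the distance from the lowest to the highest of the 4. The median spread was 205 bp, with quartiles of 91 and 438 bp and a range of 4 to 4776 bp. All 4 summits lay within 50 bp at 448 sites (11.7%, interval 10.7 to 12.7), within 100 bp at 1074 sites (interval 26.6% to 29.4%) and within 200 bp at 1890 sites (49.2%, 47.6 to 50.8). Where each library gave 1 peak the median spread was 148 bp, and where there were more than 4 peaks it was 481 bp. At chained sites with no common base it was 573.5 bp. A spread over fewer summits is smaller by construction, and without Dox replicate 1 it was 135 bp at sites of the other 3 libraries.

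The spread shrank as enrichment rose. Sites were ordered by the lowest fold percentile that any of the 4 libraries gave them. Below percentile 25 the median spread was 255 bp (1169 sites), and at percentiles 25 to 50 it was 250 bp (996 sites). At percentiles 50 to 75 it was 189 bp (826 sites), at 75 to 90 it was 145 bp (450 sites), and at 90 to 99 it was 80 bp (337 sites). At percentile 99 and above it was 45.5 bp, with quartiles of 29 and 76.75 bp, and 51 of those 62 sites had all summits within 100 bp. The q-value gave the same order, with medians of 256, 206, 130, 69 and 49 bp for sites at which 0, 1, 2, 3 and 4 libraries reached a q of 0.05. The strongest sites were also the wider ones, with a median width of 1217 bp at percentile 99 and above and 778 bp below percentile 25. Fold and summit are read from the same peaks, and this is a description of these 4 libraries.

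**Figure D2:**
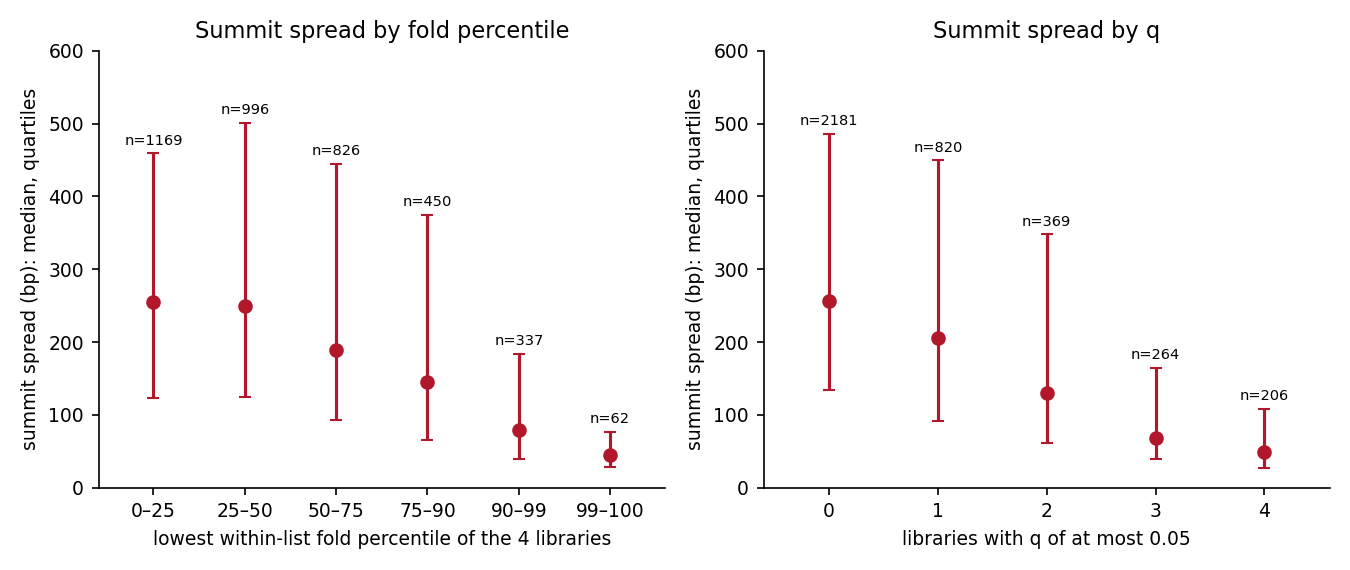
Distance between the lowest and highest of the 4 summits (y axis, bp; points are medians, bars are quartiles, n is the number of sites). Left, sites by the lowest fold percentile of the 4 libraries, where the median is 255 bp below percentile 25 and 45.5 bp at percentile 99 and above; right, sites by the number of libraries with q of at most 0.05, where it is 256 bp for 0 libraries and 49 bp for 4.

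Over the whole set, summits of a pair of libraries were somewhat closer at the shared sites than at sites of 3 libraries, while sites of 2 libraries overlapped them in range. Pairs of summits at sites of all 4 libraries lay 76 to 88 bp apart at the median over the 6 pairs of libraries. At sites of 3 libraries the pair medians were 83 to 91 bp, and at sites of exactly 2 libraries 76 to 91 bp. The pair median was smaller at sites of all 4 libraries than at sites of 3 in 5 of the 6 pairs; the exception was the Dox pair, with 88 and 86 bp. The share of pairs within 50 bp was 35.5% to 39.2% at sites of all 4 libraries, 31.1% to 34.7% at sites of 3 and 32.0% to 37.9% at sites of 2. At the 206 sites with q of at most 0.05 in every library the pair medians were 19.5 to 23 bp. The signed distance between libraries had a median between -1 and 1 bp in each pair. Within its own peak the summit was about as far from the middle in both classes, at 29.06% to 32.13% of the half-width at sites of all 4 libraries and 28.93% to 30.04% at sites of 1.

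Summit distances gave no stable direction between pairs of the same and of different treatment. Pairs of the same treatment lay 83 bp apart on average over the pair medians, and pairs of different treatment 80.88 bp apart, a difference of 2.125 bp (exact test over the 3 ways to pair the libraries, p = 0.33, the smallest it allows). The difference was -5.5 bp without Dox replicate 1, -0.5 bp without Dox replicate 2 and -0.5 bp with peaks of q at most 0.05. Pairs of the same replicate number lay 80.5 bp apart and crossed pairs 81.25 bp. The order of the sites by fold was shared moderately by all pairs. Spearman's rho over the 3840 sites was 0.369 for the Dox pair and 0.379 for the PBS pair, 0.412 and 0.529 for the pairs of numbers 1 and 2, and 0.343 and 0.385 for the crossed pairs. These are correlations over sites that share their libraries and local background, and sites are not replicates.

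The 10 leading sites, taken by the highest lowest fold percentile, had summits 14 to 120 bp apart with a median of 29.5 bp, and 7 of them lay within 50 bp. On chromosome 17, the site from 43225665 to 43227581 had its summits at 43225999 and 43226001 in Dox replicates 1 and 2 and at 43225987 and 43225989 in PBS replicates 1 and 2. Its fold was 20.1 and 22.3 in Dox and 14.4 and 20.2 in PBS. On chromosome 11, the site from 65190010 to 65191612 had summits at 65190508 and 65190515 in Dox and at 65190501 and 65190516 in PBS, a spread of 15 bp. These sites were 1917 and 1603 bp wide, so the 4 summits took up a small part of each.

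On chromosome 1 (181103616 to 181104631) the spread was 18 bp, with folds of 22.9 and 18.8 in Dox and 20.0 and 17.9 in PBS. On chromosome 21 (34739306 to 34740256) it was also 18 bp, with folds of 20.0 and 15.4 in Dox and 11.7 and 14.4 in PBS. On chromosome 6 (36643749 to 36644624) the summits lay at 36644184 and 36644240 in Dox and at 36644207 and 36644231 in PBS, a spread of 56 bp in the narrowest of the 10 sites, at 876 bp. The widest spreads among the leading sites were 120 bp on chromosome 14 (35023484 to 35026224) and 108 bp on chromosome 12 (120728497 to 120731197). On chromosome 14 the summits of replicate number 1, at 35025192 in Dox and 35025165 in PBS, lay apart from those of number 2, at 35025075 in Dox and 35025072 in PBS. The other leading sites were on chromosome 17 at 18965076 to 18967670 and 56735201 to 56736900 and on chromosome 1 at 148603540 to 148605108, with spreads of 45, 28 and 31 bp. At most leading sites both summits of number 1 lay to one side of both summits of number 2. On chromosome 12 they were at 120729341 and 120729375 against 120729449 and 120729399. Exceptions were the site on chromosome 21 and those on chromosome 17 at 43225665 and 56735201. Dox and PBS summits were separated in this way only at 43225665. Over all shared sites, pairs of the same number lay 80.5 bp apart and crossed pairs 81.25 bp. Where q was at most 0.05 in every library, medians for pairs of the same number were 20 and 22 bp. They were 23 and 19.5 bp for pairs of the same treatment and 22.5 and 23 bp for crossed pairs. How often the numbers were separated beyond these 10 sites was not counted.

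**Figure D3:**
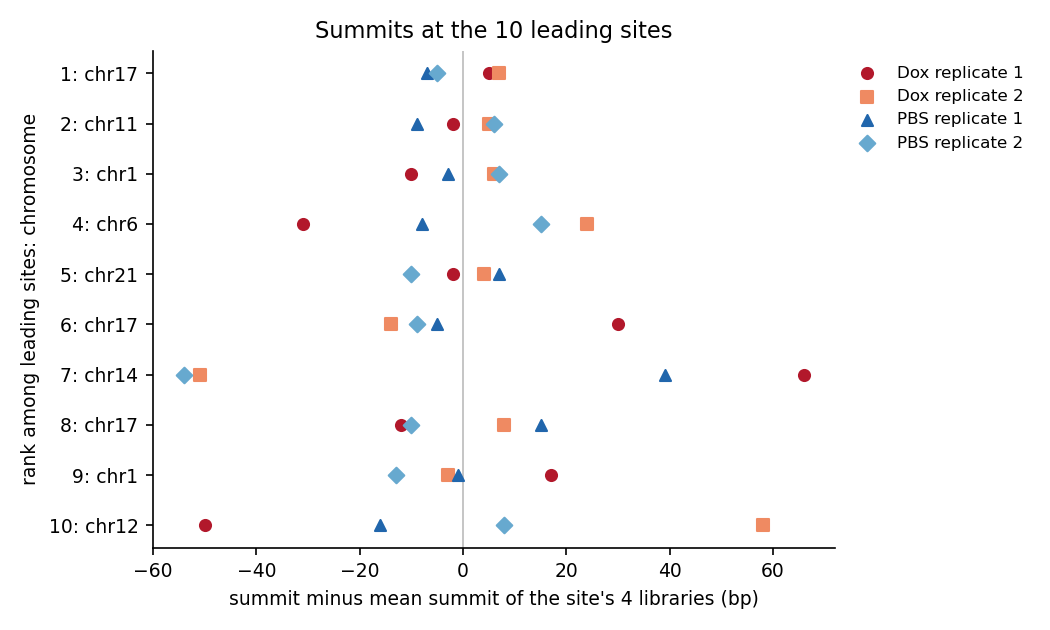
Summit of each library minus the mean summit of the 4 libraries (x axis, bp) at the 10 leading sites in rank order (y axis, chromosome named). Dox and PBS points are mixed in most rows, while points of the same replicate number lie to one side of the others in most rows. This separation was not counted over other sites. The rows with the widest scatter are the sites on chromosome 14 and chromosome 12, with spreads of 120 and 108 bp.

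The loosest sites were wide blocks in which the libraries put their strongest peak at different places. The largest spread, 4776 bp, was on chromosome X from 30811991 to 30818053, where 20 peaks had folds of 3.03 to 3.8. It was followed by 4487 bp at the wide site on chromosome 5 and 4077 bp at the neighbouring site on chromosome X. On chromosome 6 (74222109 to 74227273) the spread was 3806 bp although q was at most 0.05 in all 4 libraries. On chromosome 16 (2010266 to 2015535) it was 3461 bp, with Dox replicate 2 at 2014703 and the other 3 libraries between 2011242 and 2011262. At the other end, 99 sites had all 4 summits within 20 bp. These were 507 bp wide at the median, and 39 of them had q of at most 0.05 in every library, with 5.36% over all members.

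Some sites inside the rule were held whole by a small overlap. At 47 sites the smallest overlap in the chain was 10 bp or less, and at 218 (5.68%) it was under 50 bp. A site cut at such an overlap can still hold peaks of all 4 libraries. With a minimum overlap of 50 bp there were 3778 sites of all 4 libraries, against 3840. The leading site on chromosome 1 at 181103616 had a smallest overlap of 9 bp. The smallest links were 1 bp, at chromosome 7 (27183222 to 27184373), chromosome 15 (75494639 to 75495771) and chromosome 16 (33238721 to 33241275). The first of these had folds of 2.76 and 2.3 in Dox and 2.28 and 3.08 in PBS and no common base, whereas the last had folds of 5.01 to 5.99 and 1062 bp in peaks of every library. Links of 2 bp held the next sites, on chromosome 1 (17732068 to 17733139) and chromosome 19 (544844 to 545699). Just outside, 2448 of the 4772 sites of 3 libraries lacked only PBS replicate 1, the shortest list, 1385 lacked Dox replicate 2, 500 lacked PBS replicate 2 and 439 lacked Dox replicate 1. The nearest peak of the missing library lay within 200 bp at 3.47% of the sites that lacked PBS replicate 1 and at 11.6% of those that lacked Dox replicate 1.

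Sites of all 4 libraries lay close to one another. Another such site lay within 100 kb of 61.1% of them (interval 59.5 to 62.6), against 48.8% (48.3 to 49.2) of the sites of 1 library that had a site of all 4 libraries within that distance. Within 10 kb the shares were 25.5% (24.1 to 26.9) and 13.0% (12.7 to 13.3). The distances of both classes are to the same set of sites. With only peaks of q at most 0.05 the shares within 100 kb were 36.89% and 7.129%. Sites of 3 and 2 libraries lay between, at 55.8% and 53.5% within 100 kb. Shared sites also had more sites of any kind around them, a median of 9 within 50 kb on each side (quartiles 4 and 18), against 6 (quartiles 2 and 13) for sites of 1 library. By library, the share of sites of 1 library within 100 kb of a shared site was 50.5% and 48.6% for Dox replicates 1 and 2. For PBS replicates 1 and 2 it was 46.0% and 43.1%. Within 10 kb the order was another, with 12.6% and 14.1% for Dox and 16.6% and 12.7% for PBS.

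**Figure D4:**
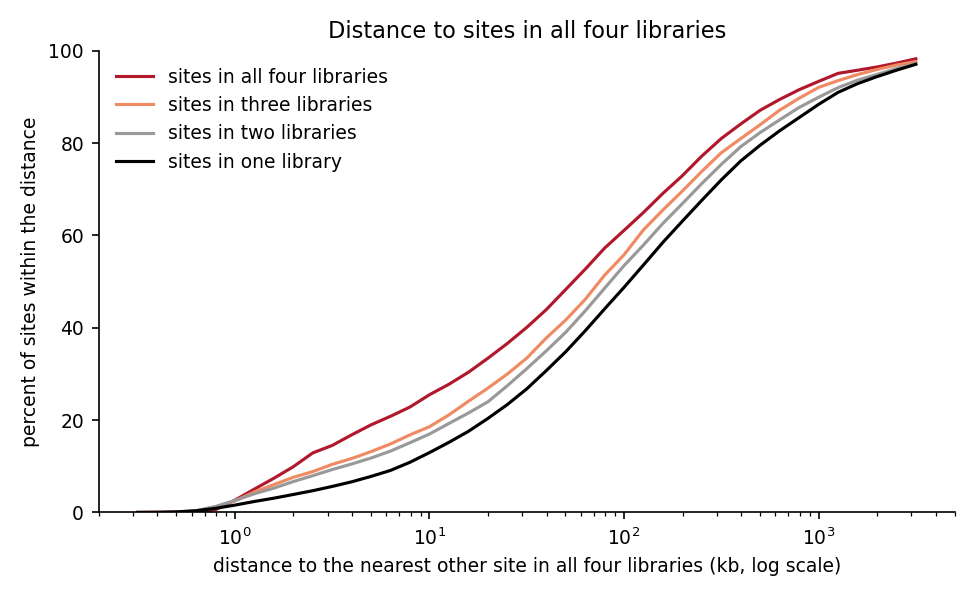
Percent of sites (y axis) with another site of all 4 libraries within a given distance between site midpoints (x axis, kb, log scale), for sites in all 4, 3, 2 and 1 libraries. The curve of sites in all 4 libraries is the highest from 10 kb to 1 Mb, at 61.1% at 100 kb against 48.8% for sites in 1 library.

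Chained at gaps of 100 kb or less, the 3840 sites formed 2169 stretches, of which 1489 were lone sites (38.8% of the sites). Stretches of 5 or more sites numbered 116 and held 952 sites (24.8%, interval 23.5 to 26.2). Sites in these stretches were wider than lone ones, at 938 bp against 747 bp, and 7.77% of them (6.24 to 9.65) had q of at most 0.05 in every library, against 4.03% of lone sites (3.14 to 5.15). Their summit spread was no closer, at 214.5 bp against 178 bp.

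The fullest stretch lay on chromosome X from 114959726 to 115009706, with 28 sites, or 62.2% of the 45 merged sites there. Its sites had median folds of 4.148 and 3.353 in the Dox libraries and 3.616 and 3.432 in the PBS libraries. On chromosome 1, the stretch from 228645017 to 228784185 held 26 sites, the strongest of these stretches, with median folds of 6.442 and 5.593 in Dox and 4.99 and 6.025 in PBS and 16 sites with q of at most 0.05 in every library. Another on chromosome 1, from 161283485 to 161442047, held 21 sites, or 63.6% of the merged sites there, with 6 such sites. The sites of these 3 stretches followed each other at median spacings of 1608, 1404 and 1586 bp.

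Sites of both the chromosome X stretch and the stretch at 228645017 on chromosome 1 recurred at set distances. Of the 114 distances of up to 10 kb between sites of the chromosome 1 stretch, 11 fell between 2200 and 2400 bp, 8 between 4400 and 4600 bp, 10 between 6600 and 6800 bp and 9 between 8800 and 9000 bp, with 2.28 per 200 bp on average. On chromosome X, 10 of 127 distances fell between 8800 and 9000 bp and 9 between 5800 and 6000 bp, with 2.54 per 200 bp on average. Copies of a repeated unit can share reads, and no source used here states how reads with several possible positions were treated. The part of this in the spacing was not tested.

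The stretch on chromosome 4 from 49093916 to 49158643 stood apart in its summits. Its 20 sites had the lowest folds of the 5 fullest stretches, with a median lowest percentile of 4.247, and yet the closest summits, with a median spread of 26 bp. All 4 summits lay within 20 bp at 8 of the 20 sites and within 50 bp at 12. At 5 of the 20 sites q was at most 0.05 in every library, against 5.36% of all 3840 sites. A second stretch close by on chromosome 4, from 49276605 to 49337681, was looked up after its values were seen. It had 16 sites with a median spread of 36.5 bp. Of the 16, 12 lay within 50 bp, and 3 had q of at most 0.05 in every library. Its folds were not as low, with a median lowest percentile of 37.19, against 43.72 over all 3840 sites, and 6 of its 16 sites were below percentile 25, against 14 of 20 in the first stretch. Of all 3840 sites, 7 had q of at most 0.05 in every library and a fold below percentile 25 in at least 1 list. Of these 7, 4 were on chromosome 4, and 3 of the 7 lay in a stretch of 5 or more sites. Chromosome 4 held 143 of the 3840 sites and 16 of the 206 with q of at most 0.05 in every library. The remaining stretch of the leading 5 was of another kind, with 22 sites over 551 kb of chromosome 16 from 30535513 to 31086524, amid 150 sites of 1 library, a median spacing of 20501 bp and none with q of at most 0.05 in every library.

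The density along the genome differed 16.39-fold between chromosomes. Over the span from the first to the last merged site of each chromosome there were 1.302 sites of all 4 libraries per Mb, and 15.7 sites of 1 library. Chromosome 19 had the highest density, 6.097 per Mb (360 sites), followed by chromosome 22 with 4.894 (172 sites) and chromosome 17 with 3.227 (262 sites). Chromosome 18 had the lowest, 0.3721 per Mb (29 sites), then chromosome 13 with 0.5038 (48 sites) and chromosome 8 with 0.5128 (75 sites). Sites of 1 library followed nearly the same order, with an 11.35-fold range, from 65.3 per Mb on chromosome 22 and 52.14 on chromosome 19 to 5.951 on chromosome 13 and 5.753 on chromosome 4, with 6.467 on chromosome 18. Over the 23 chromosomes the densities of both classes had a Spearman's rho of 0.96. Both followed the number of protein-coding genes that RefSeq lists for the chromosome on GRCh38.p14, set over the same hg19 span, with rho of 0.902 for sites of all 4 libraries and 0.913 for sites of 1. The chromosomes share libraries and differ in gene content, base composition and the part that can be mapped, and the part of each was not tested.

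Per 100 protein-coding genes the range was narrower. There were 19.23 sites of all 4 libraries per 100 genes over the genome, 24.81 on chromosome 19 and 10.74 on chromosome 18. The highest values were 45.19 on chromosome 21 and 38.14 on chromosome 22, where sites of 1 library were also the most frequent, at 376.2 and 508.9 per 100 genes.

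The share of a chromosome's merged sites that were found in every library is a measure that does not count genes. It ran from 4.48% on chromosome 18 (interval 3.13 to 6.35) to 8.9% on chromosome 4 (7.61 to 10.4), with 6.01% over the genome. The next highest were chromosome 21 with 8.49% (7.08 to 10.2) and chromosome 19 with 7.97% (7.22 to 8.8). On chromosome 4, 3 stretches of 10 or more shared sites held 46 of its 143 sites, and without them the share was 6.38% (5.26 to 7.72). On chromosome 21 the share without such a stretch was 7.86% (6.47 to 9.52), and on chromosome 19 it was 7.24% (6.49 to 8.08). On chromosome X it was 5.25% with, and 4.22% (3.5 to 5.09) without, the fullest stretch. Without Dox replicate 1, shares of the sites of all 3 remaining libraries were 16.03% on chromosome 4, 17.99% on chromosome 19 and 9.014% on chromosome 18.

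**Figure D5:**
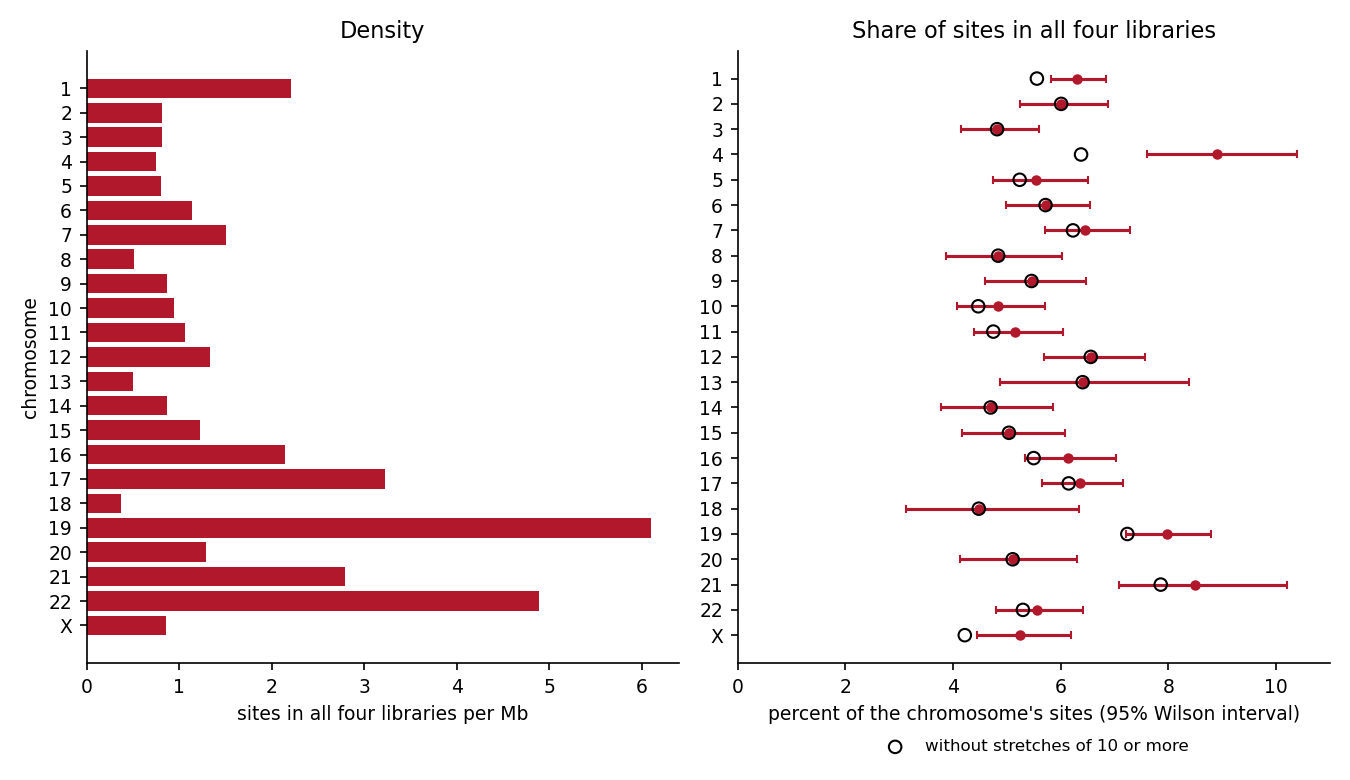
Left, sites in all 4 libraries per Mb (x axis) for each chromosome (y axis), from 0.3721 on chromosome 18 to 6.097 on chromosome 19. Right, the percent of each chromosome's merged sites found in all 4 libraries (points, with 95% Wilson intervals as bars) and the same without stretches of 10 or more such sites (open circles), which falls to 6.38% on chromosome 4, against 8.9% with them.

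Within 1 Mb of the outermost positions of the chromosomes, sites of all 4 libraries took a slightly larger share of their class than sites of 1 library. Of the 46 outermost merged sites, 7 were found in all 4 libraries and 27 in 1. These sites set the outermost positions, and so lie close to them by construction. Over all 63890 merged sites, 6.01% were in all 4 libraries and 46298 in 1. Within 100 kb the intervals overlapped, at 0.573% (0.379 to 0.866) for sites of all 4 libraries and 0.451% (0.394 to 0.517) for sites of 1. Within 1 Mb of the outermost positions lay 212 sites of all 4 libraries (5.52%, interval 4.84 to 6.29) and 2077 sites of 1 library (4.49%, 4.3 to 4.68).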

How the data were processed

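BWA, MACS2 and build hg19 are named in the submitters' processing notes. No source used here states versions, filters or the treatment of reads with several positions. The authors deposited 1 narrowPeak list per library, called separately, with a p limit of 0.05 in the peak names. Each deposited peak has a fold ratio over local background, and p and q as −log10. The deposited summit column held chromosome coordinates, which lay inside the peak throughout. Per the file headers, the authors' pair tables give IDR as a fraction.

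From these lists, peaks were merged, and summits, distances and densities were computed with Python 3.11.15, numpy 2.4.6, pandas 2.3.3 and scipy 1.17.1. Printed starts count from 1. On 4000 planted sites with known libraries, widths, summits and neighbours, 0 values came out wrong. Each planted site had at most 1 peak per library, and its peaks shared bases. The choice among several peaks of a library and chained sites without a common base were therefore not exercised. Depth is unknown, so no floor is given. Replicates are separate samples in the labels, from passages 3 and 5, and p-values measure only the spread between them. A shared number is a shared passage, and the replicate differences of fold rank in Dox and PBS had r = 0.17 over the 3840 sites.

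Members and lists were chosen with earlier results of these data known. Named are the 10 sites with the highest lowest fold percentile, the 5 widest, the 5 with the largest summit spread, the 5 with the smallest link, the 5 fullest stretches and the 3 highest and lowest chromosomes by density. The planned list of p53 target genes was not used, since no hg19 annotation was. Alternatives were another overlap, a q limit, equal list lengths, a common base, other summit and window choices, leaving out each library and the number as a block.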

Additional observations from a re-analysis of the deposited data

Results flagged for a closer look

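The Dox minus PBS difference of the median peak width at sites of all 4 libraries went in opposite directions at the 2 passages. It was 180 bp for replicate number 1 (passage 3) and -34.5 bp for replicate number 2 (passage 5). With a single Dox and a single PBS library at each passage, this contrast was not tested.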

How the results depend on the processing

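By merged width, sites of all 4 libraries were wider than sites of 1 library in 7 of 7 alternatives. Joining peaks of several libraries widens a site by construction, so this count is no test of the width. The bases common to every library had a median of 217 bp, below the 248 bp of sites of 1 library. Sites of all 4 libraries stayed nearer to other shared sites in 10 of 10 alternatives. Both counts include the alternatives that leave out a library, where the sites are those of all remaining libraries. With peaks of q at most 0.05, there were 206 sites (8.443% of merged sites), with median widths of 1004 bp and of 540 bp for sites of 1 library, a summit spread of 48.5 bp, and shares within 100 kb of 36.89% and 7.129%. With equal list lengths there were 2294 sites (8.813%), the width of sites of 1 library was 265 bp, the spread 153.5 bp, the shares 50.35% and 38.06%, and chromosome 19 had 11.44%. Requiring a common base gave 5.319% of merged sites. The spread was 148 bp at sites with 1 peak per library and, chosen after seeing the data, 49 bp at sites with q of at most 0.05 in all 4 libraries. The shares were 25.49% and 12.96% within 10 kb, 93.36% and 88.38% within 1 Mb, and, chosen after seeing the data, 57.16% and 46.16% without stretches of 10 or more sites.

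Leaving out each library in turn, with sites of all 3 remaining libraries, gave 4243 to 6282 sites, 7.677% to 12.45% of merged sites, widths of 633 to 722 bp and of 245 to 255 bp for sites of 1 library, and spreads of 135 to 154 bp. The shares within 100 kb ran from 63.51% to 70.25% and from 50.72% to 60.27%, and the chromosome 19 share from 9.349% to 17.99%. The Dox minus PBS width difference ran from -2.5 bp without Dox replicate 1 to 137.5 bp. Summit distances of the same minus different treatment ran from -5.5 bp without Dox replicate 1, and -0.5 bp without Dox replicate 2, to 9.5 bp, and were -0.5 bp with peaks of q at most 0.05 (exact p = 1.0). The cause of these changes of sign was not tested.

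With the replicate block, the width difference was 72.75 bp (exact sign-flip p = 1.0), and summits of the same treatment were 2.5 bp farther apart than those of the same number. The block leaves the width difference the same by construction, and with 2 passages the sign-flip test cannot reach a small p-value. No call could therefore change. The motif alternative was not run. Read depth is unknown, so what it limits cannot be given.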
